A study of Mus musculus with 59 samples.

Results

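The genes described here are 32 that make, move, store or remove cholesterol, chosen by symbol from a count table of 57180 gene rows, where each stood on 1 row. All 32 passed the filter on low counts in every fit, and the lowest count of any of them in a library was 214, for Ebp. The series holds 59 stranded poly(A) RNA libraries from 30 male mice, of which 29 gave both cortex and hippocampus. The labels name wild type (Mrpl40 +/+, Slc25a1 +/+; 9 cortex and 8 hippocampus libraries), Slc25a1 het (Slc25a1 heterozygous, Mrpl40 +/+; 7 and 7), Mrpl40 het (Mrpl40 heterozygous, Slc25a1 +/+; 7 and 7) and double het (heterozygous for both; 7 and 7). Slc25a1 is the mitochondrial citrate carrier and Mrpl40 a protein of the mitochondrial ribosome. The labels used here give neither the age and strain of the mice nor how the alleles were made.

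Cholesterol is built from acetyl-CoA. A first block of enzymes makes isoprenoid units through mevalonate, squalene synthase commits them to sterols, and the later enzymes close the rings and trim the molecule. The transcription factor SREBP-2, which Srebf2 encodes, switches these genes on when membranes of the endoplasmic reticulum run low in sterol: Scap carries it to the Golgi, and the Insig proteins hold Scap back. Lipoprotein cholesterol hardly crosses the blood-brain barrier, so the brain makes its own, above all for myelin, and neurons export the surplus as 24S-hydroxycholesterol, the product of Cyp46a1. The citrate that Slc25a1 brings to the cytosol can be split to the acetyl-CoA from which this pathway starts.

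Library totals ranged from 21443017 to 32120906 counts. Slc25a1 itself fell into separate ranges: in cortex 12 libraries lay between 10.8 and 13.0 CPM (counts relative to library size) and 18 between 20.9 and 26.2, and in hippocampus 12 lay between 10.8 and 12.9 and 17 between 21.1 and 27.4. In 6 animals (labelled wild type 6 and 7, Slc25a1 het 12 and 13, and double het 29 and 30) the range went against the label in the tissues measured, so genotypes below are those of the labels, and the differences between genotypes and the counts between tissues are given also without these 6 animals. Animals labelled Slc25a1 het differed from wild type by -0.53 ± 0.20 (SE, log2) in cortex. Mrpl40 did not separate its label, with a log2 difference from wild type of -0.043 ± 0.061 (SE) in cortex labelled Mrpl40 het (edgeR adjusted p = 0.915). All 10 hippocampus markers were higher in wild-type hippocampus than in cortex (median log2 difference 3.29), and 9 of 10 cortex markers were lower. Of the hippocampus libraries, 1 had high cerebellar markers (animal 12), 2 had high choroid plexus markers (animals 22 and 30), and 1 had low hippocampus and high oligodendrocyte markers (animal 8). That library of animal 8 also had the highest summed cortex markers of the hippocampus libraries, at 460 CPM. The median of wild-type hippocampus was 389.

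Promoter sequences were searched for the letters that this control is known to read. Sequences from 250 bases before to 50 bases after the start site were taken from RefSeq (build GRCm38.p6), where 26 of the 32 genes had an entry. The sterol element core TCACNCCAC was found, on either strand, in 1 of the 26, Hmgcs1, and in 1.39% of the tested genes' promoters. The shorter core TCACNCCA, which is the start of the longer one and was added after the first search, was found in Hmgcs1, Srebf2 and Msmo1, against 4.67%. The CCAAT box, read by NF-Y, was in 22 of 26 against 42.2%, and the GC box GGGCGG, read by Sp1 and related factors, in 24 of 26 against 63.1%. A gene with several listed start sites counted if any of them held the motif. Shown first are the 3 genes with a sterol core, and then the paired regulators Insig1 and Insig2, whose levels differed between the tissues in opposite directions. The stretches are chr13:119690171-119690264 (plus strand) for Hmgcs1, chr15:82147099-82147195 (plus) for Srebf2, chr8:64733628-64733758 (minus) for Msmo1, chr5:28071177-28071292 (plus) for Insig1 and chr1:121332614-121332729 (minus; 1 of the 3 start sites listed) for Insig2. They run 5′ to 3′ on the gene's strand, all before the start site, and capitals mark the motifs (TCACNCCA or TCACNCCAC; CCAAT, or ATTGG where it lies on the other strand; GGGCGG, or CCGCCC on the other strand).
Hmgcs1: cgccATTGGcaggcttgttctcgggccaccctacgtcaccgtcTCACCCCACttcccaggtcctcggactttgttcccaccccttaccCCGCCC
Srebf2: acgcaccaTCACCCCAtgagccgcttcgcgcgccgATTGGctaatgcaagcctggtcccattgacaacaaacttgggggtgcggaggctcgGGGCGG
Msmo1: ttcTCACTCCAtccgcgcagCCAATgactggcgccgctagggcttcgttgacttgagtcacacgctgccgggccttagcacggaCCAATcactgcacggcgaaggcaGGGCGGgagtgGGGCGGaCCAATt
Insig1: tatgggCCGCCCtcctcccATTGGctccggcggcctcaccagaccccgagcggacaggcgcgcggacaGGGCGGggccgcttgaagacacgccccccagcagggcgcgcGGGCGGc
Insig2: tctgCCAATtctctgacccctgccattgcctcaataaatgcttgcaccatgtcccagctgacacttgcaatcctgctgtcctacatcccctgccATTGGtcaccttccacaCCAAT
The Hmgcs1, Srebf2 and Msmo1 stretches each hold a sterol core, a CCAAT box and a GC box. The Insig2 stretch holds 3 CCAAT boxes and none of the other motifs. At the start sites of Insig2 that are not shown, GC boxes were found, so the gene counts among the 24 with one. These matches are descriptions of the letters in this window and no measure of binding.

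Per length, the gene for cholesterol removal was the highest of the 32 in wild-type cortex. Cyp46a1 stood at 79.5 ± 4.03 CPM per kilobase of merged exons (SD, n = 9), followed by Hmgcs1, the enzyme that joins acetyl units into HMG-CoA, at 57.6 ± 3.35. Srebf2 followed at 38.0 ± 1.85, the endocytic receptor Lrp1 at 35.3 ± 1.27 and Insig1 at 27.9 ± 1.90. The lowest was Abca1, the lipid exporter of the plasma membrane, at 2.57 ± 0.17. In wild-type hippocampus the order of the first 2 genes was the other way round, with Hmgcs1 at 45.0 ± 2.71 and Cyp46a1 at 41.3 ± 2.76 (n = 8), a gap within their summed spread. The order depends on the lengths used, which take in all annotated exons of a gene. In CPM, Hmgcs1 and Cyp46a1 had means of 265 and 261 in wild-type cortex, with merged lengths of 4594 and 3287 bases.

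To ask how the tissues differ, hippocampus was compared with cortex of the same animal. In wild type the synthesis genes that differed were nearly all lower in hippocampus, together with Srebf2 and Insig1, while Insig2 and 4 of the 7 uptake, transport, storage and export genes that differed were higher. In edgeR's quasi-likelihood test with the animal as a block and a false discovery rate of 0.05 over all genes, 14 of 32 genes were lower in wild-type hippocampus and 6 were higher. That is 62.5% of the set, where 60.6% of the 21354 genes tested were called: 30.1% of all genes were lower and 30.4% were higher, against 43.8% and 18.8% of the set. The median log2 difference was -0.10 over the 32 genes and 0.0066 over all genes. Wild-type fits used the 8 animals with both tissues, while the cortex ranges below cover all 9 libraries. Since each library is bulk tissue, fewer cells of a type and less RNA per cell cannot be told apart. Neuron markers were below 0 in 10 of 10 genes (6 called, median -0.22) and oligodendrocyte markers above 0 in 12 of 12 (0 called by edgeR, 2 at an unadjusted p under 0.05, median 0.30). Oligodendrocyte precursor markers were above 0 in 6 of 6 (3 called) and choroid plexus markers in 8 of 9 (4 called). Astrocyte markers were called higher in 5 of 11 and lower in 1, and their summed level ranged from 4706 to 5370 CPM in cortex and from 5289 to 6582 in hippocampus. Meningeal and fibroblast markers were called higher in 4 of 8, cerebellar granule markers higher in 1 of 7, endothelial and pericyte markers lower in 2 of 10, and microglia markers in 0 of 11. The part of these cell types in the differences was not tested, beyond a fit with the oligodendrocyte marker level as a covariate, which called 22 of 32. The share of all genes called in that fit is not given here, so this count has no background.

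Cyp46a1, the neuronal cholesterol 24-hydroxylase, had the largest difference of the 32. In wild-type cortex it ranged from 241 to 279 CPM with a median of 263, and in hippocampus from 128 to 150 with a median of 132. The ranges lay far apart, and all 29 animals had less in hippocampus. The log2 difference in wild type was -0.95 ± 0.044 (SE; edgeR adjusted p = 2.46e-19). It was -0.98, -0.84 and -0.91 in the groups labelled Slc25a1 het, Mrpl40 het and double het. The other export genes went the other way. Abca1 ranged from 24.8 to 30.2 CPM in cortex (median 26.1) and from 23.9 to 35.5 in hippocampus (median 32.8), so that the ranges overlapped. It was higher in hippocampus in 7 of 8 wild-type animals (log2 difference 0.23 ± 0.057, edgeR adjusted p = 0.000841). Abcg1, which passes cholesterol to lipoproteins, did not pass in wild type (0.073 ± 0.034, edgeR adjusted p = 0.0619).

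**Figure D1:**
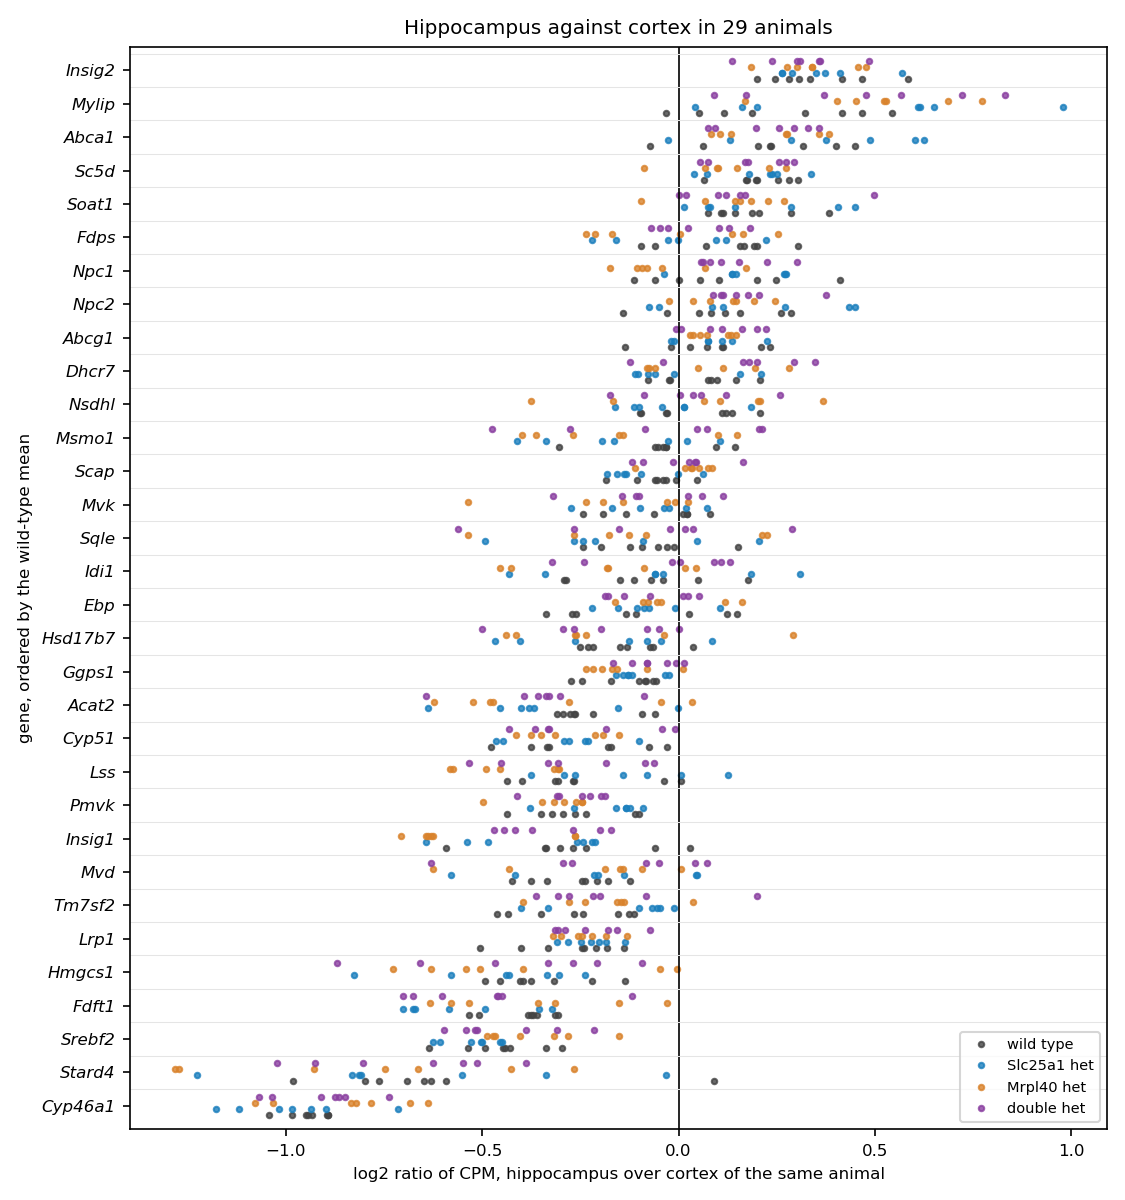
Log2 ratio of hippocampus to cortex CPM of the same animal (x axis) for the 32 genes (y axis, ordered by the wild-type mean); each point is 1 of 29 animals, coloured by labelled genotype. All Cyp46a1, Srebf2, Fdft1, Hmgcs1, Lrp1 and Pmvk points lie left of 0 and all Insig2 points right of it.

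In the early block, 5 of 8 genes were lower in wild-type hippocampus and none was higher. Hmgcs1 ranged from 240 to 284 CPM in cortex (median 268) and from 178 to 218 in hippocampus (median 210). The ranges did not meet, and the log2 difference was -0.35 ± 0.076 (edgeR adjusted p = 0.000184). Pmvk, the phosphomevalonate kinase, ranged from 31.99 to 34.8 CPM in cortex (median 33.9) and from 25.7 to 32.4 in hippocampus (median 27.5), and differed by -0.27 ± 0.038 (adjusted p = 2.06e-07). Mvd, which decarboxylates mevalonate diphosphate, ranged from 17.3 to 21.8 CPM in cortex (median 19.6) and from 14.3 to 17.5 in hippocampus (median 16.6; -0.27 ± 0.068). Acat2, the thiolase of the first condensation, ranged from 38.5 to 46.7 (median 42.7) and from 34.5 to 38.1 (median 36.7), with -0.23 ± 0.062. Ggps1, which diverts isoprenoids to geranylgeranyl diphosphate, ranged from 58.0 to 64.4 (median 59.9) and from 49.5 to 57.3 (median 55.5), with -0.14 ± 0.030. For Acat2 and Ggps1, as for Hmgcs1, every hippocampus library lay below every cortex library. The pairs of ranges of Pmvk and Mvd met only at their edges. Mvk, Idi1 and Fdps did not pass, at -0.065 ± 0.053, -0.094 ± 0.067 and 0.11 ± 0.051 (edgeR adjusted p = 0.295, 0.236 and 0.0536).

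The sterol branch was split. Fdft1, squalene synthase, stood between 86.3 and 104 CPM in wild-type cortex (median 92.6) and between 66.2 and 74.9 in hippocampus (median 71.1). It was lower in hippocampus in 29 of 29 animals, by -0.40 ± 0.056 in wild type (edgeR adjusted p = 2.67e-07). Lss, which closes the sterol rings, ranged from 34.6 to 43.2 (median 38.8) and from 28.6 to 41.4 (median 32.1), and differed by -0.26 ± 0.054. Its ranges overlapped through 1 hippocampus library, that of animal 8. Cyp51 and Tm7sf2, which act on lanosterol and on the double bond left by Cyp51, differed by -0.25 ± 0.047 and -0.27 ± 0.053. Cyp51 ranged from 67.3 to 85.8 CPM in cortex (median 75.2) and from 57.2 to 70.1 in hippocampus (median 63.8), and Tm7sf2 from 23.7 to 30.8 (median 26.1) and from 19.8 to 23.6 (median 22.4). The ranges of Cyp51 overlapped and those of Tm7sf2 did not. Sc5d, the lathosterol desaturase near the end of the route, was the single gene of the branch that was higher, with 71.4 to 81.2 CPM in cortex (median 76.5) and 83.1 to 94.4 in hippocampus (median 88.9). All 8 wild-type and 28 of 29 animals had more of it in hippocampus (0.20 ± 0.036, edgeR adjusted p = 9.47e-06). Sqle, the epoxidase after squalene, and the demethylation and late enzymes Msmo1, Nsdhl, Hsd17b7, Ebp and Dhcr7 did not pass in wild type, with log2 differences between -0.14 (Hsd17b7) and 0.057 (Dhcr7).

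The regulators did not move together. Srebf2 ranged from 257 to 292 CPM in wild-type cortex (median 273) and from 177 to 222 in hippocampus (median 194). No hippocampus library reached the cortex range, and the log2 difference was -0.46 ± 0.040 (edgeR adjusted p = 4.94e-12). Insig1, itself a target of SREBP-2, ranged from 76.9 to 94.8 CPM in cortex (median 86.4) and from 58.2 to 82.3 in hippocampus (median 70.3), an overlap, and was lower in hippocampus in 7 of 8 wild-type animals (-0.27 ± 0.057, adjusted p = 0.000146). Insig2, the form that SREBP-2 does not drive, ranged from 42.8 to 48.1 CPM in cortex (median 45.9) and from 54.1 to 64.2 in hippocampus (median 57.6). It was higher in 29 of 29 animals, by 0.35 ± 0.040 in wild type (edgeR adjusted p = 2.07e-09). Scap, the escort of SREBP-2, did not pass (-0.059 ± 0.031, adjusted p = 0.104).

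**Figure D2:**
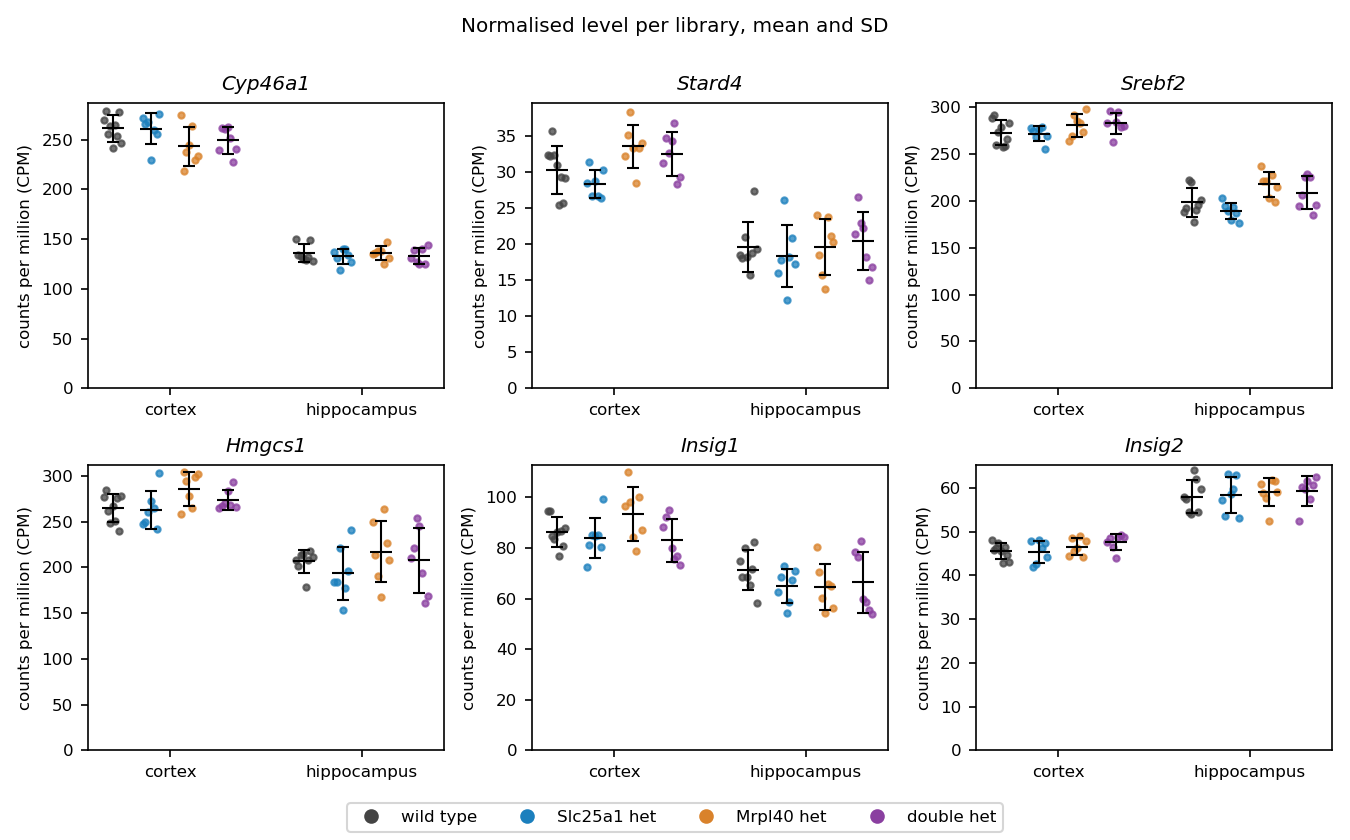
CPM per library (y axis, from 0) for 6 genes in cortex and hippocampus (x axis); points are libraries coloured by labelled genotype, and black bars are the mean and SD of each group. Cyp46a1 and Srebf2 are lower in every hippocampus group, Insig2 is higher, and the 4 genotypes of a tissue overlap in each panel.

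Among the genes of uptake, transport and storage, Stard4 and Lrp1 were lower in wild-type hippocampus. Stard4, a soluble carrier of sterols, ranged from 25.4 to 35.6 CPM in cortex (median 30.9) and from 15.7 to 27.3 in hippocampus (median 18.6). Its highest hippocampus value was again that of animal 8, and this was the sole animal of 29 with more in hippocampus. The log2 difference was -0.63 ± 0.117 (edgeR adjusted p = 4e-05), and -0.74 without the 4 hippocampus libraries of divergent markers. Lrp1 ranged from 590 to 658 CPM in cortex (median 628) and from 448 to 570 in hippocampus (median 524), with no overlap (-0.29 ± 0.035). Soat1, which esterifies cholesterol for storage, was higher in all 8 wild-type animals, with 33.7 to 38.6 CPM in cortex (median 36.2) and 38.1 to 47.2 in hippocampus (median 41.1; 0.18 ± 0.048). Mylip, the ligase that sends lipoprotein receptors to degradation, ranged from 16.1 to 18.9 (median 16.7) and from 18.2 to 24.2 (median 19.9; 0.26 ± 0.087, adjusted p = 0.0119). Npc1, which lets cholesterol out of lysosomes, ranged from 54.3 to 58.7 (median 55.5) and from 52.0 to 73.5 (median 59.0). Its call was marginal (0.10 ± 0.044, edgeR adjusted p = 0.0461) and was lost with oligodendrocyte markers as a covariate (0.044, adjusted p = 0.276) and without the 4 libraries (0.055, adjusted p = 0.275). Npc2, its partner in the lysosome, did not pass (0.095 ± 0.049, adjusted p = 0.095).

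The same comparison within the other genotypes called 23 of 32 genes each. For the Slc25a1 het label 7 were higher and 16 lower, where 60.4% of all genes were called, 30.5% higher and 29.9% lower. For the Mrpl40 het label they were 6 and 17 (60.3% of all genes called), and for double het 9 and 14 (57.5%). The shares of all genes higher and lower are not given for these labels, so the split has no background there. Averaged over the 4 genotypes, 29 genes were called, 9 higher and 20 lower (90.6% of the set), where 77.5% of all genes were called, 39.8% higher and 37.7% lower. Scap, Fdps and Nsdhl were the 3 that did not pass there. These comparisons rest on different animals, so that their directions can be set side by side. Hmgcs1 differed by -0.46, -0.41 and -0.42 in the 3 heterozygous groups, Fdft1 by -0.55, -0.37 and -0.50, Srebf2 by -0.53, -0.37 and -0.45, and Insig2 by 0.35, 0.34 and 0.31. Without the 6 animals 20 of 32 genes passed in wild type and 20 in Slc25a1 het. In Mrpl40 het 22 passed, in double het 19 and over the mean of the 4 genotypes 27. The shares of all genes called in these fits are not given here, so the counts have no background. In wild type without these animals, Cyp46a1, Srebf2 and Insig2 differed by -0.92, -0.44 and 0.31.

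Other genes of sterol handling were taken from a list of 49, of which 47 were tested. In wild-type hippocampus 16 were higher and 16 lower, against the 30.4% and 30.1% of all genes, and the median log2 difference was 0.00086. The 8 with the smallest p were lower for Osbpl1a (-2.01 ± 0.079) and Osbpl8 (-0.57 ± 0.045), which encode oxysterol-binding-like proteins, Nr1h2 (-0.68 ± 0.037), the nuclear receptor LXR-beta, and Tmem97 (-0.91 ± 0.066), a partner of Npc1. They were higher for Cyp7b1 (1.62 ± 0.085), an oxysterol hydroxylase, Lcat (1.14 ± 0.074), which esterifies cholesterol on lipoproteins, Gramd1c (1.51 ± 0.11), of a family of sterol carriers at membrane contacts, and Stard5 (1.49 ± 0.11), a relative of Stard4. None of the list passed in a comparison between genotypes (edgeR). At an unadjusted p under 0.05, of the 46 tested there, 1, 5 and 9 were found in cortex for Slc25a1 het, Mrpl40 het and double het against wild type (3.17%, 6.94% and 10.9% of all genes) and 4, 5 and 4 in hippocampus (7.77%, 8.19% and 5.28%).

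To ask what each allele does to the pathway, the 3 heterozygous labels were compared with wild type in each tissue, double het was set against the single hets, and an interaction term for the pair of alleles was fitted. No gene of the 32 passed in any of these 12 comparisons, either with edgeR or with DESeq2. Over all 12, log2 differences of the 32 genes lay between -0.22 and 0.21, and the smallest adjusted p of any of them was 0.215 with edgeR (0.579 without the 6 animals) and 0.123 with DESeq2. At an unadjusted p under 0.05 edgeR found 2, 7 and 3 genes in cortex for Slc25a1 het, Mrpl40 het and double het against wild type, where 3.17%, 6.94% and 10.9% of all genes had such a p, and 4, 3 and 1 in hippocampus, where 7.77%, 8.19% and 5.28% had. For double het against Slc25a1 het and Mrpl40 het it found 2 and 10 in cortex (9.92% and 6.94% of all genes) and 2 and 0 in hippocampus (9.04% and 4.68%), and for both interactions 0 (5.35% and 3.39%). Few genes of any kind passed: in cortex 0%, 0.0294% and 0.0686% of 20394 genes for Slc25a1 het, Mrpl40 het and double het against wild type, and in hippocampus 0%, 0.00496% and 0.00992% of 20162. For double het against Slc25a1 het and Mrpl40 het the shares were 0.0588% and 0.0049% in cortex and 0% and 0% in hippocampus, and for the interactions 0% and 0%. The genes called higher made up 0.0245% in cortex for Mrpl40 het and 0.0196% for double het against wild type, and 0.0245% for double het against Slc25a1 het. A p above the threshold does not show that the levels were equal. Counts of the 32 genes above or below wild type are given below, but the share of all genes on that side was not taken. The median log2 difference over all genes in cortex was -0.00043, -0.0020 and -0.0034 for Slc25a1 het, Mrpl40 het and double het. Genes of a library can lie to the same side together, so such counts are not of independent genes and were not tested. Each library of a tissue came from another animal, so that p-values measure the spread between animals.

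In cortex labelled Slc25a1 het, 25 of 32 genes lay below wild type, with a median of -0.025, while oligodendrocyte markers lay above it in 12 of 12 (median 0.16) and microglia markers below it in 9 of 11 (median -0.033). Pmvk had the smallest p: it ranged from 31.99 to 34.8 CPM in wild type (median 33.9) and from 28.9 to 34.8 in Slc25a1 het (median 31.3), with overlap (-0.097 ± 0.036, edgeR adjusted p = 1.0). Without the 6 animals its difference was -0.14. Lss ranged from 34.6 to 43.2 in wild type (median 38.8) and from 31.0 to 41.2 in Slc25a1 het (median 37.3), at -0.11 ± 0.054, and -0.15 without these animals. Sqle ranged from 59.3 to 77.4 (median 65.3) and from 56.2 to 68.7 (median 61.1), at -0.078 ± 0.043, and -0.12 without them. In hippocampus 20 of 32 lay below wild type, 9 of 11 in the sterol branch. Fdft1 ranged from 66.2 to 74.9 CPM in wild type (median 71.1) and from 55.8 to 70.1 in Slc25a1 het (median 61.9), at -0.18 ± 0.068 (edgeR adjusted p = 0.558) and -0.21 without the 6 animals. Acat2 ranged from 34.5 to 38.1 (median 36.7) and from 30.4 to 36.0 (median 31.9), at -0.16 ± 0.066 and -0.17 without them. Fdps, farnesyl diphosphate synthase, ranged from 30.9 to 38.3 (median 36.0) and from 30.0 to 34.2 (median 32.4), at -0.13 ± 0.058 and -0.14. All 3 overlapped with wild type. Neuron markers lay below wild type in 8 of 10 genes here (median -0.14). Cerebellar granule markers lay above it in 5 of 6 (median 1.87), through the library of animal 12. Their summed level had a median of 56.3 CPM here against 68.1 in wild type, with a highest value of 633 in that library. The part of these cell types was not tested.

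In cortex labelled Mrpl40 het, 24 of 32 genes lay above wild type, among them 8 of 8 of the early block, with a median of 0.037. Hsd17b7, the reductase of the demethylation complex, ranged from 22.6 to 29.0 CPM in wild type (median 24.2) and from 25.4 to 29.4 in Mrpl40 het (median 26.6), at 0.14 ± 0.046 (edgeR adjusted p = 0.544). Npc1 ranged from 54.3 to 58.7 (median 55.5) and from 52.2 to 65.9 (median 62.9), at 0.11 ± 0.041, and Hmgcs1 from 240 to 284 (median 268) and from 258 to 304 (median 294), at 0.11 ± 0.042. The groups overlapped for each of these genes. Oligodendrocyte markers also lay above wild type, in 12 of 12 genes with a median of 0.30, and their summed level ranged from 1861 to 2974 CPM in wild type and from 1702 to 4086 in Mrpl40 het. Neuron markers lay above wild type in 9 of 10 (median 0.064), and astrocyte, microglia and meningeal markers below it in 10 of 11, 11 of 11 and 8 of 8 (medians -0.074, -0.091 and -0.33). With the oligodendrocyte marker level as a covariate, Hsd17b7, Npc1 and Hmgcs1 differed by 0.12, 0.066 and 0.073. In that fit 2 of 32 genes rather than 7 had an unadjusted p under 0.05 (edgeR). Of all 20394 genes, 1208 rather than 1416 had such a p. Without the 6 animals the 3 differences were 0.12, 0.11 and 0.11. Double het set against the same Mrpl40 het libraries had 24 of 32 genes below 0 in cortex, 8 of 8 in the early block, and oligodendrocyte markers below 0 in 11 of 12 (median -0.11). In hippocampus labelled Mrpl40 het the 32 genes were divided, 17 above and 15 below, and astrocyte markers lay below wild type in 11 of 11 (median -0.11). Srebf2 ranged from 177 to 222 CPM in wild type (median 194) and from 198 to 238 in Mrpl40 het (median 221), at 0.13 ± 0.050, and 0.091 without the 6 animals. Lss ranged from 28.6 to 41.4 (median 32.1) and from 25.5 to 32.1 (median 29.1), at -0.18 ± 0.076, and -0.23 without the 6 animals but -0.13 without the 4 hippocampus libraries. Scap ranged from 78.8 to 86.7 (median 85.2) and from 84.5 to 93.3 (median 89.4), at 0.078 ± 0.037 and 0.070. Overlap with wild type remained for these 3 as well.

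**Figure D3:**
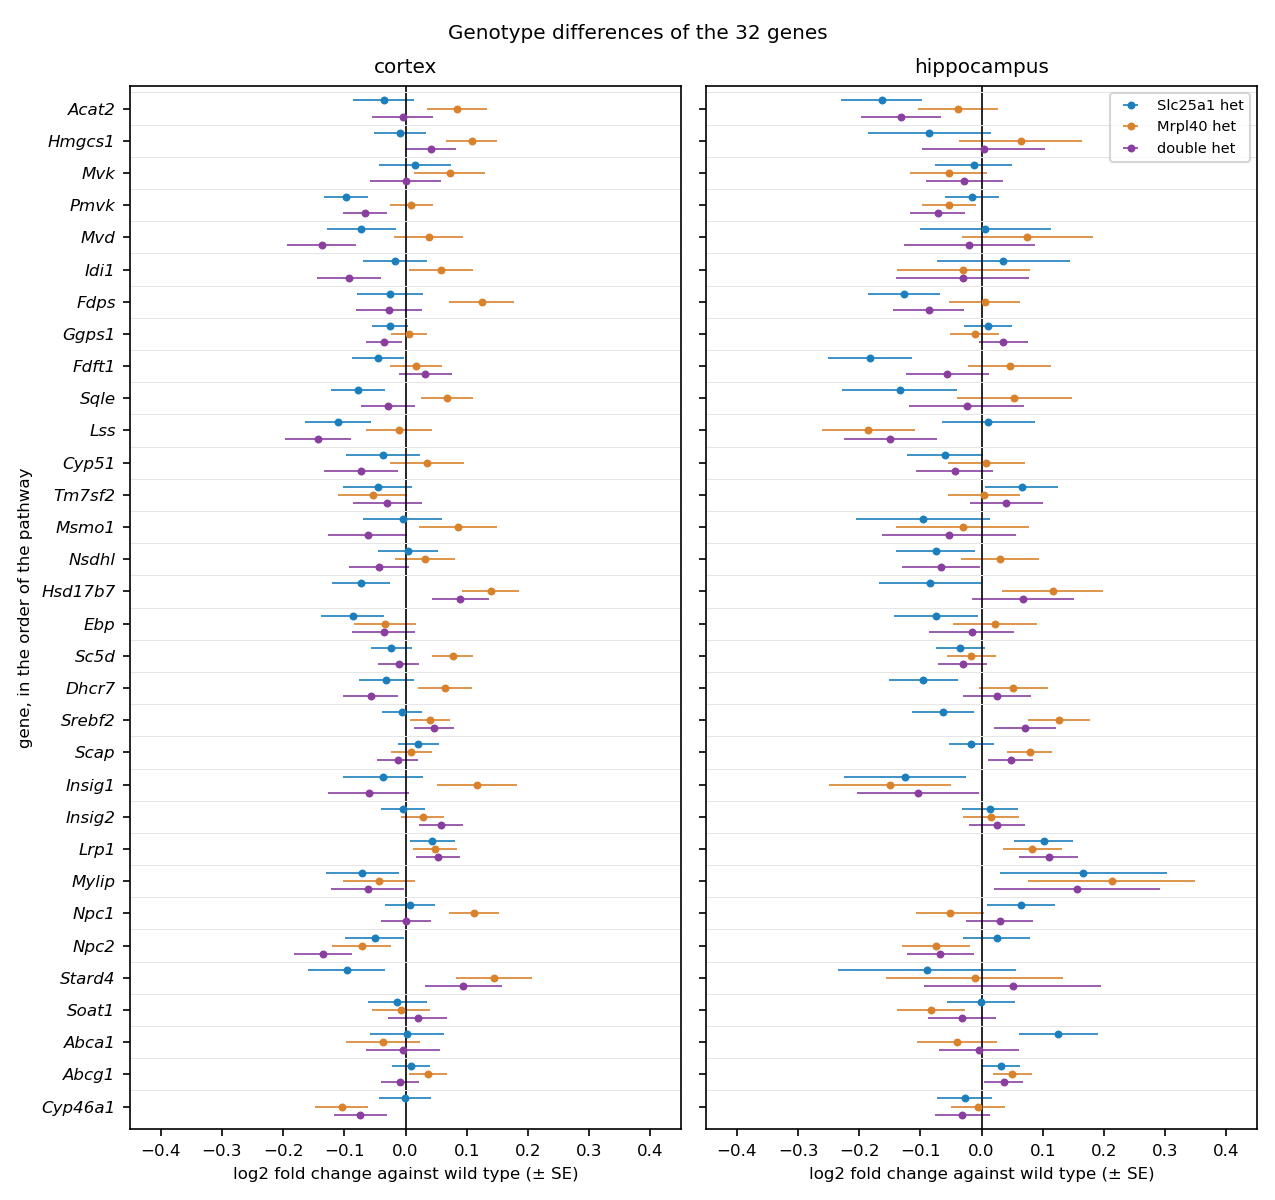
Log2 fold change against wild type (x axis) of the 32 genes (y axis, ordered by role) in cortex and hippocampus for the 3 heterozygous labels; bars are the SE of the edgeR fit. All values lie within the x range shown, and none passed the test.

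In cortex labelled double het, 22 of 32 genes lay below wild type, with a median of -0.028, and oligodendrocyte markers lay above it in 12 of 12 (median 0.18). Astrocyte and microglia markers lay below it in 11 of 11 and 10 of 11 (medians -0.085 and -0.12; 1 microglia marker was called lower), endothelial and pericyte markers in 10 of 10, and neuron markers above it in 8 of 10 (median 0.042). Npc2 ranged from 42.9 to 50.1 CPM in wild type (median 45.5) and from 39.9 to 44.1 in double het (median 41.6), at -0.13 ± 0.048 (edgeR adjusted p = 0.282), and -0.13 without the 6 animals. Lss ranged from 34.6 to 43.2 (median 38.8) and from 31.7 to 38.6 (median 35.0), at -0.14 ± 0.054, and -0.15 without them. Mvd ranged from 17.3 to 21.8 (median 19.6) and from 16.3 to 19.1 (median 17.9), at -0.14 ± 0.057, and -0.10 without them. All 3 ranges overlapped with wild type, those of Lss and Mvd broadly. In hippocampus 19 of 32 lay below wild type. Lrp1 ranged from 448 to 570 CPM in wild type (median 524) and from 499.7 to 589 in double het (median 561), at 0.11 ± 0.048 (edgeR adjusted p = 0.918), and 0.099 without the 6 animals. Acat2 ranged from 34.5 to 38.1 (median 36.7) and from 27.8 to 39.5 (median 32.5), at -0.13 ± 0.066, and Lss from 28.6 to 41.4 (median 32.1) and from 24.2 to 36.0 (median 30.1), at -0.15 ± 0.076. Without the 6 animals these were -0.077 and -0.11, and without the 4 hippocampus libraries -0.091 and -0.058. The 3 comparisons of a tissue share the same wild-type libraries.

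Whether a genotype effect differed between the tissues was tested as an interaction within animals. With edgeR, 0 of 32 genes passed for any of the 3 labels (0%, 0% and 0.0234% of all genes for Slc25a1 het, Mrpl40 het and double het), and 0 passed with DESeq2. At an unadjusted p under 0.05 there were 0, 3 and 0 genes, where 6%, 5.83% and 5.03% of all genes had such a p. The smallest p was that of Insig1 for the Mrpl40 het label, whose effect in hippocampus minus that in cortex was -0.28 ± 0.083 (edgeR adjusted p = 0.829). Lss (-0.18 ± 0.079) and Npc1 (-0.14 ± 0.065) were the other two.

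Because myelin-forming cells make much of the brain's sterol, each gene was also fitted against the mean log2 CPM of 12 oligodendrocyte markers, with genotype as a covariate. In cortex 2 of 32 genes passed (7.08% of all genes did). Cyp46a1 fell with the marker level, by 0.21 ± 0.036 in log2 units per unit (edgeR adjusted p = 7.24e-05). Npc1 rose with it, by 0.18 ± 0.038 (adjusted p = 0.00168). Hmgcs1 had a slope of 0.13 ± 0.043 (adjusted p = 0.0518). In hippocampus 3 of 32 passed (6.86% of all genes): Npc1 at 0.23 ± 0.055 (edgeR adjusted p = 0.00830), Soat1 at 0.23 ± 0.058 (0.0134) and Pmvk at 0.16 ± 0.048 (0.0392). These calls depended on few libraries. Without the 2 cortex libraries farthest from the median marker level (Slc25a1 het 4 and Mrpl40 het 2), Npc1 had a slope of 0.16 (adjusted p = 0.0533) while Cyp46a1 still passed. Without the 2 farthest in hippocampus (wild type 8 and double het 1), 0 genes passed, and the slopes of Npc1, Soat1 and Pmvk were 0.12, 0.17 and 0.096.

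**Figure D4:**
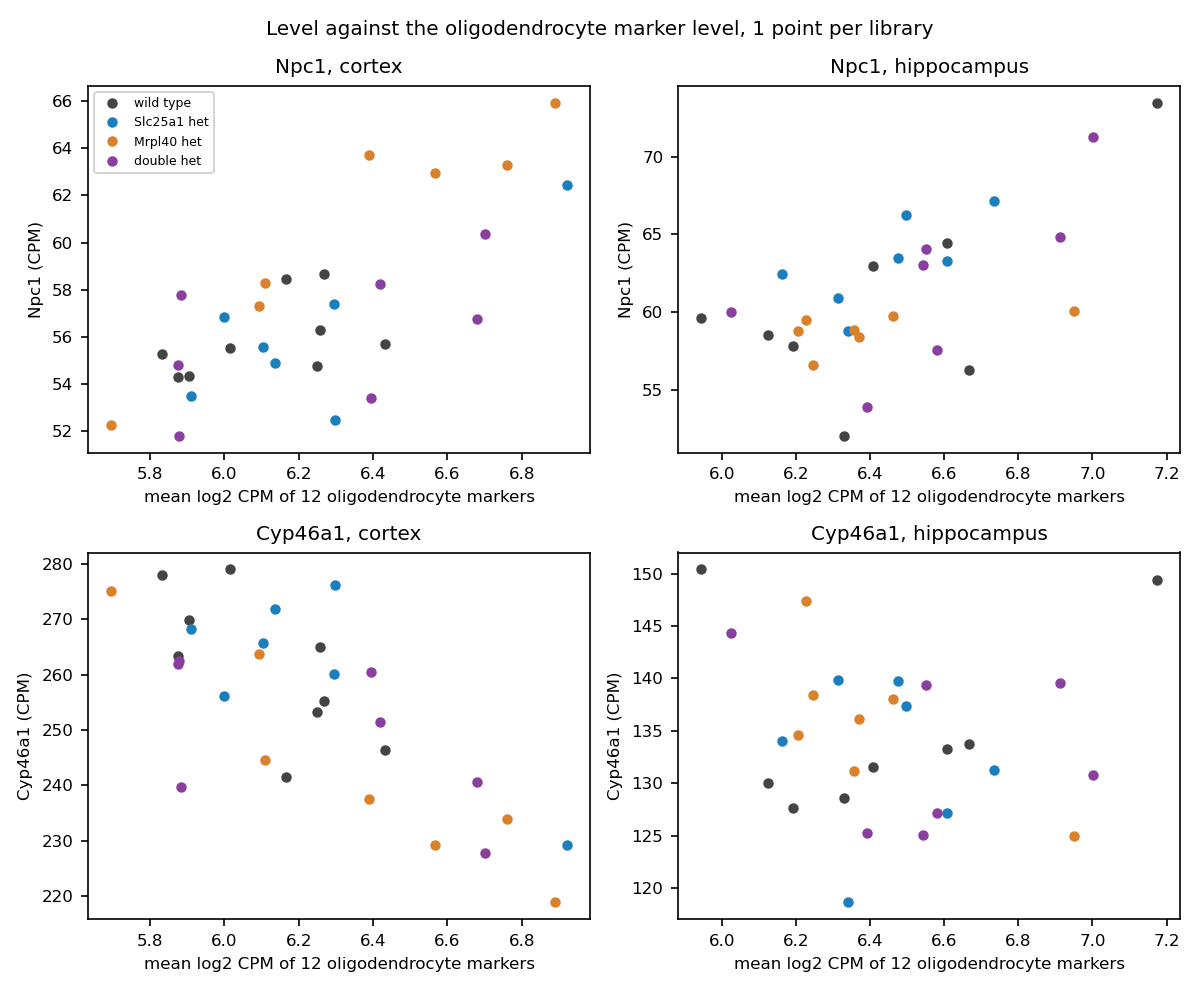
CPM of Npc1 and Cyp46a1 (y axes, not starting at 0) against the mean log2 CPM of 12 oligodendrocyte markers (x axis) in cortex and hippocampus; each point is 1 library, coloured by labelled genotype. In cortex Npc1 is higher and Cyp46a1 lower in libraries with more of the markers, and in hippocampus the highest Npc1 value belongs to wild-type library 8.

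The levels of an animal in both tissues were also compared. Over 29 animals, after centring on the genotype mean, 0 of 32 genes had a correlation between the tissues that passed (two-sided permutation test, false discovery rate of 0.05 over all genes), where 1.92% of all genes did. At an unadjusted permutation p under 0.05 there were 6 of 32 genes with Pearson's r and 3 with Spearman's rho, where 14.1% and 13.2% of all genes were. The median r was 0.081 over the 32 genes and 0.10 over all genes. The highest was that of Insig1 (r = 0.51, permutation p = 0.00488, adjusted p = 0.119; rho = 0.50, permutation p = 0.00678), and without the 2 animals farthest from its median its r was 0.56.

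The coefficient of variation over all libraries of a tissue was larger in hippocampus for 28 of 32 genes. For Hmgcs1 it was 6.72% in cortex and 13.7% in hippocampus. The most variable were Mylip and Stard4 in hippocampus, at 19.4% and 19.2%, and the least was Ggps1 in cortex, at 3.15%. How many of all genes varied more in hippocampus was not counted, so the 28 of 32 cannot be called particular to this set. The hippocampus libraries include the 4 of divergent markers. Within some libraries the synthesis genes lay to the same side of their group mean. In the hippocampus library of animal 18 (Mrpl40 het), 18 of the 19 genes of synthesis were above it, with a median log2 deviation of 0.16, and in that of animal 27 (double het) 16 of 19, with 0.19. In the hippocampus libraries of animal 21 (Mrpl40 het) and animal 30 (double het), 1 and 2 of 19 were above it, with -0.22 and -0.18. These libraries were picked as the ends of the range over all 59. Neuron markers there averaged 9.04 and 9.05 log2 CPM in animals 18 and 27, and 8.82 and 8.71 in animals 21 and 30. In hippocampus of animal 23 (Mrpl40 het) they averaged 8.83, with a median deviation of 0.058. Animal 30 also had high choroid plexus markers and Slc25a1 against its label. The same count over all genes was not made, and the part of cell types was not tested. In cortex the medians of the 19 genes stayed between -0.095 and 0.11.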

How the data were processed

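Gene counts were read as the authors deposited them, raw counts per gene for 59 libraries. FastQC, HISAT2, featureCounts and DESeq2 and the build mm39 (GRCm39) are named per the submitters' processing notes, and versions of these are not used here. The deposited normalized values (unit signal) were the counts divided by 1 factor per library, and served as an alternative in limma 3.58.1. The 32 genes and all lists were chosen with earlier results of these data known.

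CPM were computed with TMM scaling in edgeR 4.0.16 (R 4.3.3), with a prior count of 2 on the log2 scale, and genes were filtered by filterByExpr. Genotypes were compared within a tissue by edgeR's quasi-likelihood test over all 4 genotypes, and adjusted by Benjamini-Hochberg over all genes at 0.05. Tissues were compared with the animal as a block over 29 animals. The labels give the animal of each library, and deviations from the group mean over 5000 genes correlated between the tissues of an animal with a median of 0.109, against -0.00987 between other animals. Correlations used 100000 permutations. Named with their library values are genes that passed, and the 3 with the smallest p in each comparison with wild type where none did. Levels per kilobase used merged exon lengths of a GENCODE annotation. Promoters came from RefSeq (GRCm38.p6), a build that differs from the authors'. Both programs for the fits and correlations were tested on simulated data. Alternatives were DESeq2 1.42.0, its size factors in edgeR, no filter, the normalized values, the replicate number as a block, fits with fewer groups or libraries and the oligodendrocyte marker level as a covariate. Leaving out the 6 animals or the 4 hippocampus libraries was chosen after seeing the data.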

Additional observations from a re-analysis of the deposited data

Results flagged for a closer look

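Of 256 sets of libraries (a gene in a tissue and genotype), 15 held a library that stood apart from the rest of its set by Dixon's criterion, where about 1 in 20 would by chance. In wild-type hippocampus, library 6 was low for Hmgcs1 at 178 CPM (the others 202 to 218) and for Ggps1 at 49.5 (54.3 to 57.3), and library 8 was high for Lss at 41.4 (28.6 to 33.7) and for Stard4 at 27.3 (15.7 to 20.9). Library 7 of wild-type cortex was low for Scap, the escort of SREBP-2, at 76.7 (83.4 to 90.1).

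In cortex labelled Slc25a1 het, library 7 was high for Fdft1 at 106 CPM (the others 84.3 to 90.0) and for Msmo1 at 103 (62.3 to 78.0). Library 6 was low for Scap at 79.0 (86.0 to 91.2), library 1 low for Npc2 at 36.2 (44.7 to 48.0) and library 4 low for Cyp46a1 at 229 (256 to 276). In hippocampus of that label, library 7 was high for Idi1, the isomerase of isoprenoid units, at 66.5 (37.1 to 46.3).

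In cortex labelled Mrpl40 het, library 2 was high for Pmvk at 37.4 CPM (33.0 to 34.2). In double het, library 5 of cortex was high for Ggps1 at 62.6 (57.2 to 59.5), library 6 of hippocampus low for Lrp1 at 499.7 (555 to 589) and library 1 of hippocampus high for Abca1 at 33.3 (30.2 to 31.3).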

How the results depend on the processing

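Followed through the alternatives were the genes called in a comparison, and the 3 with the smallest p in each comparison with wild type. None of these differences changed sign under any alternative run: 976 values stayed on their side of the threshold and 46 lost their call. Other genes were not followed in this way, so calls that they gained under an alternative are not in these numbers. In wild-type hippocampus against cortex, the log2 difference of Cyp46a1 lay between -0.95 and -0.90 and that of Npc1 between 0.044 and 0.13 over the alternatives. Counts of called genes moved by over 1.5 times in 3 cases, all slopes on oligodendrocyte markers: from 2 to 1 in cortex without the 2 libraries farthest from the median, from 3 to 0 in hippocampus without its 2 farthest, and from 3 to 1 without the 4 hippocampus libraries, where Soat1 still passed. With the replicate number as a block, 0 of 32 genes passed in each of the 12 genotype comparisons, the count without it. The labels do not tie a number to a shared litter or day. Libraries of the same number in other genotypes correlated in their deviations with a median of 0.126 in cortex (from -0.411 to 0.537; other numbers -0.0277) and 0.0432 in hippocampus (other numbers 0.0109), and the best correlate shared the number in 11 of 59 libraries. Without the animal as a block, 21 genes passed in wild-type hippocampus against cortex. The share of all genes called in that fit is not given here.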
